A study of Mus musculus with 7 samples.

Results

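The enzymes described here are 77 protein-coding genes of the mouse liver whose symbols begin with Adh, Aldh, Akr, Cbr, Dhrs or Ces followed by a digit, out of 54532 genes listed and 22046 listed as protein coding. They comprise 6 alcohol dehydrogenases (Adh), 21 aldehyde dehydrogenases (Aldh), 17 aldo-keto reductases (Akr), 4 carbonyl reductases (Cbr), 10 short-chain dehydrogenases/reductases (Dhrs) and 19 carboxylesterases (Ces). RNA was sequenced from livers of old C57BL/6 mice in 7 libraries, 3 from mice kept on a standard diet after MDL-800 supplementation and 4 from control mice on the standard diet. MDL-800 was developed as a compound that activates SIRT6, a sirtuin that removes acetyl groups from histones using NAD. The dose, the length of supplementation, the age in months and the sex of the mice are not given in the sources used here. Whether the libraries stem from different animals is not said in the labels, so p-values measure only the spread between these libraries. Values are FPKM, fragments scaled by gene length and by sequencing depth, as the authors deposited them.

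Together these families handle oxygen-bearing small molecules. Alcohol dehydrogenases oxidise alcohols such as ethanol and retinol to aldehydes or ketones, and aldehyde dehydrogenases oxidise aldehydes to acids, both passing electrons to NAD or NADP. Aldo-keto reductases, carbonyl reductases and many short-chain dehydrogenases run the opposite way and reduce carbonyl groups of steroids, sugars, retinal and lipid breakdown products, mostly with NADPH. Carboxylesterases hydrolyse ester and amide bonds in drugs, retinyl esters and stored triacylglycerol. Hepatocytes hold many of these enzymes at high levels, and several of the rodent genes are known to differ between male and female liver.

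The libraries differed in ways the labels do not name, and these touch many of the values below. MDL-800 2 and control 1 held 3514 and 2173 reads from Y-linked genes, with 3 reads apiece from Xist, a noncoding RNA made from the inactive X chromosome of females. The other 5 libraries held 0 Y-linked reads. They are called Y-negative here and those 2 libraries Y-positive. Xist had 15495 to 21104 reads in 4 of the 5 Y-negative libraries and 0 in control 3. Recovered reads numbered 17600066 to 19920469 per library. Hepatocyte markers summed to 56794 to 58105 FPKM in MDL-800 libraries and 54907 to 83084 FPKM in control libraries. Alb made up most of these sums, and other markers varied more. Cyp3a11 stood at 383.6 to 808.7 FPKM in MDL-800 libraries and 0.9429 to 292.8 FPKM in control libraries. Of the 8 markers, 2 had fold changes above 0 and 6 below. Of 7 pancreatic acinar markers, 4 were at 0 in all 7 libraries. Cela1 stood at 4.843 to 20.07 FPKM and was highest in the Y-positive libraries. In bulk tissue, fewer cells of a type and less RNA per cell cannot be told apart.

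Between MDL-800 and control livers, no enzyme of these families passed the test across all genes (limma on log2(FPKM + 1), Benjamini-Hochberg adjusted p under 0.05). The same held for every one of the 11394 genes tested, a background of 0% called, and the lowest adjusted p of a member was 0.95 in limma. The closest were the carboxylesterases Ces2e and Ces2g and the fatty aldehyde dehydrogenase Aldh3a2, all higher in MDL-800 livers. These were the 3 of 56 tested members (5.36%) with an unadjusted p under 0.05 in the higher direction, against 3.23% of all genes tested. In the lower direction 0 of 56 members had an unadjusted p under 0.05 in limma, against 1.62% of all genes tested. The 3 members became 7 without control 1 and 5 without control 3, and 1 gene of the whole table, not a member, passed the adjusted threshold without MDL-800 1 and 1 without control 1. With limma voom on recovered reads 7 members had an unadjusted p under 0.05, and no gene passed the adjusted threshold.

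**Figure D1:**
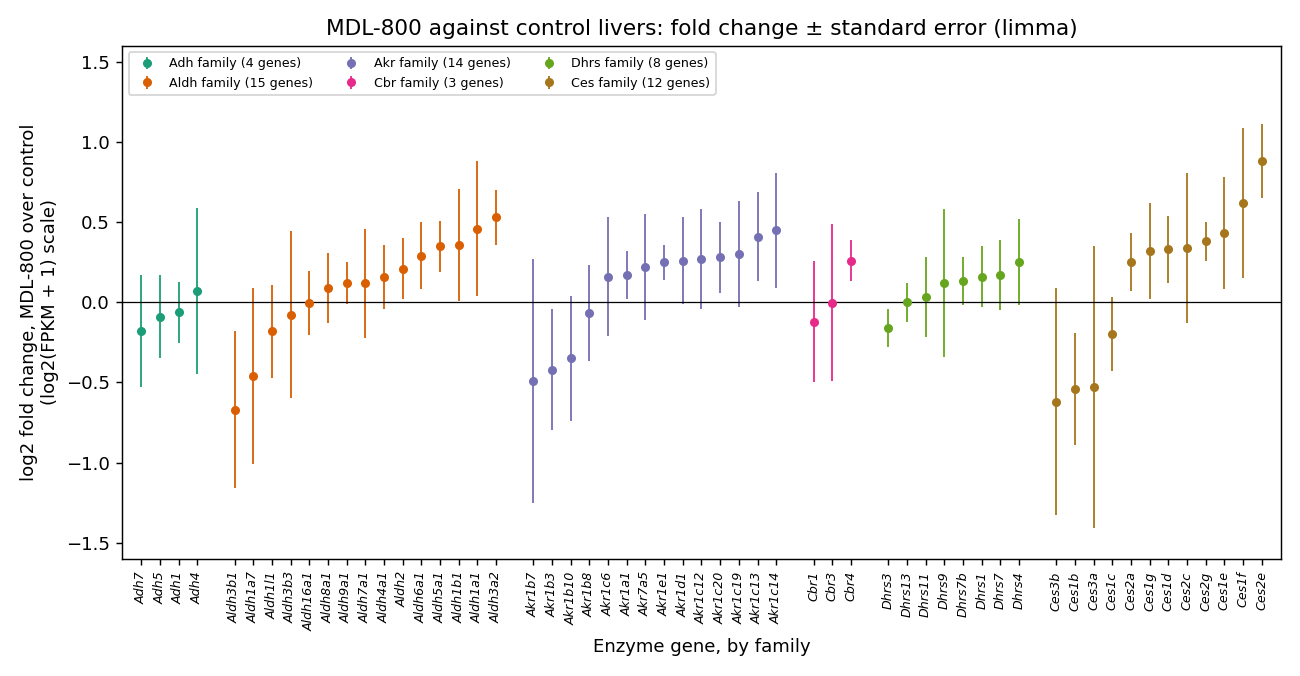
Points show the log2 fold change of MDL-800 over control livers for each of the 56 tested enzyme genes, on the log2(FPKM + 1) scale, and bars show ± 1 standard error from limma (3 against 4 libraries). Genes are grouped by family and sorted by fold change. Ces2e stands highest at 0.88, Aldh3b1 lowest at -0.67, and most bars cross or come close to 0.

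Of the 77 genes, 56 had a mean of at least 1 FPKM over the 7 libraries and were tested, comprising 4 Adh, 15 Aldh, 14 Akr, 3 Cbr, 8 Dhrs and 12 Ces genes. A fold change above 0 was found for 37 of the 56 (66.1%), against 54.2% of all genes tested. Their median log2 fold change was 0.16, against 0.021 over all genes tested. By family the median was 0.33 for Ces, 0.23 for Akr, 0.12 for Aldh, 0.12 for Dhrs, -0.003 for Cbr and -0.076 for Adh. These medians leaned on single libraries. Without MDL-800 2 the median was 0.077 for Ces, 0.073 for Akr, 0.028 for Aldh and 0.019 for Dhrs. Leaving out single libraries gave -0.28 to 0.21 for Cbr and -0.37 to 0.034 for Adh. Of the 40 members whose fold changes are printed, 35 moved by over 1.5 times when 1 library was left out, and Ces2e, Ces2g, Aldh3a2, Akr1e1 and Dhrs3 did not. In 4 of the 56 members (7.14%) all 3 MDL-800 libraries lay above all 4 control libraries, against 4.03% of all genes tested. In 0 of the 56 did all 3 lie below, against 2.42% of all genes tested. With 56 members these shares lie near the background, and no test of the list was made.

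**Figure D2:**
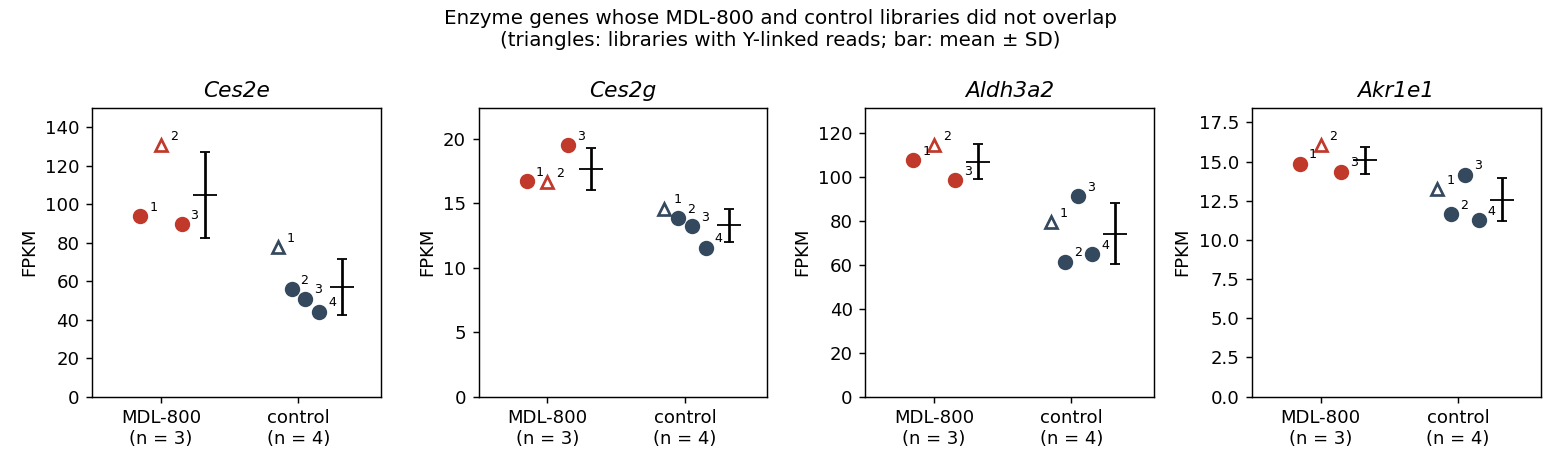
FPKM in each library is plotted for the 4 enzyme genes whose MDL-800 libraries all lay above the control libraries, on axes that start at 0. Numbers beside the points are replicate numbers, open triangles are the libraries with Y-linked reads, and bars give the mean ± SD of 3 MDL-800 and 4 control libraries. The gap is widest for Ces2e, where the lowest MDL-800 value is 89.67 FPKM and the highest control value 77.48 FPKM.

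Among alcohol dehydrogenases, no tested member separated the groups. Adh1, the class I enzyme that carries most hepatic ethanol oxidation, took 84.2% of the summed FPKM of the family. It stood at 1049, 1241 and 1061 FPKM in MDL-800 livers and at 1004, 959.8, 1446 and 1313 FPKM in control livers. The groups overlapped, with controls holding both the lowest and the highest value, and the log2 fold change was -0.063 ± 0.19 (SE; limma, adjusted p = 0.971). Its direction turned to 0.081 under quantile normalization and to 0.042 without control 3.

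Adh4, the class II enzyme active on retinol as well as ethanol, split by Y-linked reads. It reached 195.6 FPKM in MDL-800 2 and 77.09 and 62.4 FPKM in MDL-800 1 and 3, and 194.2 FPKM in control 1 and 59.24 to 83.92 FPKM in the other 3 controls. The treatment fold change was 0.070 ± 0.52 on the log2 scale (SE). Adh5, the class III enzyme that oxidises the glutathione adduct of formaldehyde, averaged 97.31 ± 29.84 FPKM in MDL-800 livers (SD, n = 3) and 102.8 ± 23.35 FPKM in control livers (SD, n = 4). Adh7, a class IV enzyme best known from the stomach, averaged 7.162 ± 2.805 FPKM in MDL-800 livers and 8.503 ± 3.975 FPKM in control livers. Log2 fold changes were -0.089 for Adh5 and -0.18 for Adh7, and both crossed 0 when single libraries were left out, reaching 0.042 and 0.070. Adh4, Adh5 and Adh7 were each highest in the 2 Y-positive libraries. The class V genes Adh6a and Adh6b had 6 and 8 reads over all libraries and were not tested. At these few reads Adh6b did not overlap, with at most 0.01378 FPKM in MDL-800 livers and at least 0.01453 FPKM in control livers.

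Aldh3a2 was the aldehyde dehydrogenase that separated the groups. It encodes the fatty aldehyde dehydrogenase of the endoplasmic reticulum, which oxidises long-chain aldehydes released from sphingolipids, ether lipids and lipid peroxidation. Livers of MDL-800 mice held 107.9, 114.6 and 98.7 FPKM, against 79.46, 61.56, 91.47 and 64.95 FPKM in control livers. All 3 MDL-800 libraries lay above every control, the nearest pair being MDL-800 3 and control 3. The log2 fold change was 0.53 ± 0.17 (SE; 95% interval 0.13 to 0.94), with a limma adjusted p = 0.95 (0.0161 before adjustment). Over 18 alternatives it ranged from 0.45 to 0.64 and the lowest adjusted p in limma was 0.534. It was 0.52 in the Y-positive pair and 0.52 among the 5 Y-negative libraries, both positive by necessity as the groups did not overlap. The gene lies on chromosome 11 at 61223417 to 61267464 (GRCm38, minus strand).

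The most abundant aldehyde dehydrogenases did not separate the groups. Aldh2, the mitochondrial enzyme that clears acetaldehyde, stood at 479.2, 652.4 and 499.9 FPKM in MDL-800 livers and at 584.9, 383.5, 463.7 and 448.3 FPKM in control livers. Its log2 fold change was 0.21 ± 0.19 (SE), and was 0.075 without MDL-800 2, 0.12 without control 2 and 0.32 without control 1. The highest value of each group came from its Y-positive library. Aldh1a1, the cytosolic enzyme that makes retinoic acid from retinal, stood at 179, 481.4 and 183.7 FPKM in MDL-800 livers. In control livers it stood at 295.2, 148.2, 145.8 and 173.5 FPKM. On the log2 scale its fold change of 0.46 ± 0.42 (SE) rested on MDL-800 2 and was -0.009 without that library. Aldh1l1, which burns 10-formyltetrahydrofolate and so drains the folate one-carbon pool, averaged 211.3 ± 76.71 FPKM in MDL-800 livers and 234.5 ± 57.84 FPKM in control livers. Its log2 fold change of -0.18 was 0.037 without MDL-800 1 and -0.45 without MDL-800 2. It was 0.74 in the Y-positive pair and -0.57 among the Y-negative libraries.

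Aldh1a7, a rodent relative of Aldh1a1, was shaped by a single control. It stood at 89.43, 163.3 and 108.2 FPKM in MDL-800 livers and at 112.7, 102.8, 460.2 and 124.4 FPKM in control livers. Control 3 lay far above the other 6 libraries, and the log2 fold change of -0.46 ± 0.55 (SE) became 0.044 without it. Aldh1a7 and Aldh1a1 share 7.49% and 6.54% of their 50-base words with transcripts of other genes, so a small part of their reads could be divided either way.

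Aldehyde dehydrogenases of amino acid and carnitine metabolism overlapped between groups and did not pass the test. Aldh5a1, the succinic semialdehyde dehydrogenase that ends GABA breakdown, stood at 10.54, 14.9 and 11.69 FPKM in MDL-800 livers. Control livers held 10.26, 7.892, 11.06 and 8.576 FPKM of it, so control 3 lay above MDL-800 1. This gave a log2 fold change of 0.35 ± 0.16 (SE), with a limma adjusted p = 0.95 (0.0628 before adjustment), and 0.22 without MDL-800 2. Aldh6a1, the methylmalonate semialdehyde dehydrogenase of valine and thymine breakdown, averaged 92.06 ± 19.57 FPKM in MDL-800 livers and 75.17 ± 14.53 FPKM in control livers. On the log2 scale its fold change was 0.29 ± 0.21 (SE), and 0.12 without MDL-800 2. Aldh4a1, of proline breakdown, averaged 56.31 ± 9.963 FPKM in MDL-800 livers and 50.41 ± 11.03 FPKM in control livers, with 45.0% of its 50-base words also in transcripts of Gm21969. Aldh9a1, of carnitine synthesis, averaged 118.8 ± 7.688 FPKM in MDL-800 livers and 109.5 ± 11.22 FPKM in control livers. Aldh7a1, of lysine breakdown, averaged 94.6 ± 42.71 FPKM in MDL-800 livers and 84.58 ± 26.12 FPKM in control livers.

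The Aldh3b genes were low and varied between libraries of each group. Aldh3b1, a membrane-bound enzyme that oxidises medium- and long-chain aldehydes, stood at 3.272, 1.51 and 4.649 FPKM in MDL-800 livers. Control livers held 2.684, 12.8, 3.503 and 5.643 FPKM of it, with control 2 highest. Its log2 fold change of -0.67 ± 0.49 (SE) was the lowest of any member and fell short of the test (limma, adjusted p = 0.95), and it was -0.29 without control 2 and -0.35 without MDL-800 2. Aldh3b3 stood at 1.648, 0.0616 and 2.113 FPKM in MDL-800 livers and at 0.04949, 2.706, 1.758 and 1.087 FPKM in control livers. It was nearly silent in both Y-positive libraries, and its log2 fold change of -0.078 ± 0.52 (SE) became 0.40 without MDL-800 2. Aldh3b2 averaged 0.1192 FPKM in MDL-800 livers and 0.09427 FPKM in control livers. For Aldh3b3, 14.51% of its 50-base words lie in transcripts of other genes.

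Control 2 was the highest library for several low genes at once, and its sums of Kupffer cell, neutrophil and erythroid markers were also the highest. Aldh18a1, the proline synthesis enzyme, reached 2.525 FPKM there, Cbr3 4.14 FPKM, Akr1b3 5.597 FPKM, Akr1b8 2.743 FPKM and Akr1b10 3.737 FPKM. Kupffer cell markers, 6 of 6 tested, summed to 413.3, 120 and 328.8 FPKM in MDL-800 livers and to 111.9, 763.6, 210.4 and 359.9 FPKM in control livers. Neutrophil markers, 4 of 6 tested, summed to 83.72, 11.93 and 38.86 FPKM in MDL-800 livers and to 38.49, 296, 46.23 and 24.47 FPKM in control livers. Erythroid markers, 4 of 5 tested, summed to 117.3, 173.5 and 123.8 FPKM in MDL-800 livers and to 194.5, 788.6, 147.8 and 136.3 FPKM in control livers. Single markers did not all follow these sums. Clec4f, Vsig4, Cd5l and Adgre1 were highest in control 2. Marco was highest in MDL-800 2 (31.53 FPKM, against 18.26 FPKM in control 2) and Timd4 in control 4 (9.177 against 3.383 FPKM). Hba-a1 gave 544.3 FPKM of the erythroid sum of control 2, while Alas2 was highest in MDL-800 2 (50.13 FPKM, against 10.99 FPKM in control 2). The part of these cells in the enzyme values was not tested.

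Among aldo-keto reductases, Akr1e1 alone separated the groups, by a narrow margin. It encodes 1,5-anhydro-D-fructose reductase and lies on chromosome 13. MDL-800 livers held 14.85, 16.04 and 14.34 FPKM, against 13.22, 11.65, 14.16 and 11.24 FPKM in control livers. The lowest MDL-800 value exceeded the highest control value by less than the SD of either group, which was 0.8705 FPKM for MDL-800 and 1.365 FPKM for control. The log2 fold change was 0.25 ± 0.11 (SE; 95% interval -0.020 to 0.52), with a limma adjusted p = 0.95 (0.0647 before adjustment).

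Steroid-reducing members made up most of the aldo-keto reductase RNA. Akr1c6, a hydroxysteroid dehydrogenase that reduces androstenedione to testosterone in the mouse, took 47.1% of the family's summed FPKM. It stood at 557.5, 1045 and 453.2 FPKM in MDL-800 livers and at 871.3, 448, 658.1 and 428.5 FPKM in control livers. Both Y-positive libraries lay above the other 5, and the log2 fold change of 0.16 ± 0.37 (SE) became -0.20 without MDL-800 2. Akr1c14, a 3-alpha-hydroxysteroid dehydrogenase, stood at 105.9, 204.5 and 101.8 FPKM in MDL-800 livers and at 155.8, 63.92, 91.29 and 88.37 FPKM in control livers. On the log2 scale its fold change was 0.45 ± 0.36 (SE), and it was 0.39 in the Y-positive pair and 0.37 among the Y-negative libraries. It was 0.13 without MDL-800 2, 0.27 without control 2 and 0.69 without control 1. Akr1d1, the 5-beta-reductase of bile acid synthesis, averaged 95.49 ± 10.86 FPKM in MDL-800 livers and 82.33 ± 25.47 FPKM in control livers.

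The other tested Akr1c genes, all on chromosome 13, also had fold changes above 0 with overlapping groups. Akr1c13 stood at 66.77, 93.88 and 69.61 FPKM in MDL-800 livers and at 82.89, 39.97, 66.78 and 46.87 FPKM in control livers, a log2 fold change of 0.41 ± 0.28 (SE) that was 0.25 without control 2. Akr1c12 averaged 74.07 ± 20.42 FPKM in MDL-800 livers and 63.04 ± 23.25 FPKM in control livers, a log2 fold change of 0.27 ± 0.31 (SE) that was 0.055 without MDL-800 2 and 0.063 without control 2. These 2 share 28.61% and 28.63% of their 50-base words with transcripts of other genes, so their levels are uncertain where the authors' counting could split reads. Akr1c20 stood at 132.5, 105.4 and 105.7 FPKM in MDL-800 livers and at 65.57, 97.16, 111.3 and 108.4 FPKM in control livers. Its log2 fold change was 0.28 ± 0.22 (SE), and 0.11 without control 1, the lowest of all libraries.

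The aldehyde and sugar reductases had overlapping groups, and the Akr1b genes were low. Akr1a1, the aldehyde reductase that also serves ascorbate synthesis in the mouse, averaged 165.5 ± 19.99 FPKM in MDL-800 livers and 147.4 ± 18.73 FPKM in control livers, a log2 fold change of 0.17 ± 0.15 (SE) that was 0.071 without MDL-800 2. Akr7a5, the aflatoxin aldehyde reductase, averaged 93.22 ± 27.41 FPKM in MDL-800 livers and 81.99 ± 30.95 FPKM in control livers. Akr1b3, aldose reductase, which reduces glucose to sorbitol, stood at 2.106, 1.113 and 2.949 FPKM in MDL-800 livers and at 1.184, 5.597, 3.218 and 3.05 FPKM in control livers. The log2 fold change of Akr1b3 was -0.42 ± 0.38 (SE), -0.18 without MDL-800 2 and -0.18 without control 2. Transcripts of other genes hold 86.17% of its 50-base words, mainly Gm38056 (82.44%), so its level is uncertain. Akr1b7, an aldose reductase-like enzyme known from vas deferens and adrenal gland, stood at 1.943, 0.1005 and 3.336 FPKM in MDL-800 livers. Control livers held 0, 2.087, 5.072 and 6.036 FPKM of it. It was lowest in the 2 Y-positive libraries, its log2 fold change of -0.49 became 0.076 without MDL-800 2, and 27.2% of its exonic bases overlap the antisense gene Gm13857.

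No carbonyl reductase separated the groups. Cbr1, the main cytosolic carbonyl reductase, which reduces quinones, prostaglandins and anthracycline drugs, stood at 44.63, 26.21 and 44.13 FPKM in MDL-800 livers. Control livers held 28.29, 31.4, 37.94 and 79.96 FPKM of it, with control 4 highest. On the log2 scale its fold change was -0.12 ± 0.38 (SE), and leaving out single libraries moved it between -0.29 and 0.20. Cbr4, a mitochondrial reductase of fatty acid synthesis, stood at 6.122, 7.753 and 5.944 FPKM in MDL-800 livers and at 6.257, 4.739, 5.371 and 5.061 FPKM in control livers. Only control 1 overlapped the MDL-800 range, and the log2 fold change was 0.26 ± 0.13 (SE) with a limma adjusted p = 0.95 (0.0831 before adjustment), and 0.15 without MDL-800 2. Cbr3 stood at 1.939, 0.4106 and 2.635 FPKM in MDL-800 livers and at 0.3849, 4.14, 1.352 and 1.244 FPKM in control livers, a log2 fold change of -0.003 ± 0.49 (SE) whose direction did not hold. Cbr2, an enzyme best known from lung, had reads in MDL-800 1 and control 2 only, 32 in all.

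All short-chain dehydrogenases/reductases had overlapping groups. Dhrs4, a peroxisomal reductase of retinal and other carbonyls, took 39.1% of the family's summed FPKM and stood at 103.6, 129.3 and 91.15 FPKM in MDL-800 livers. Control livers held 134.8, 60.81, 92.85 and 85.46 FPKM of it, spanning the whole MDL-800 range, for a log2 fold change of 0.25 ± 0.27 (SE). Leaving out control 2 gave 0.063, leaving out MDL-800 2 gave 0.11 and leaving out control 1 gave 0.44. Dhrs3, which reduces retinal to retinol and so limits retinoic acid, stood at 66.61, 62.05 and 63.65 FPKM in MDL-800 livers and at 76.86, 65.54, 77.69 and 67.8 FPKM in control livers. It was the Dhrs gene with a fold change below 0, at -0.16 ± 0.12 on the log2 scale (SE), and -0.20 to -0.11 over the alternatives. MDL-800 1 overlapped control 2 alone. Dhrs1 averaged 41.3 ± 9.858 FPKM in MDL-800 livers and 36.57 ± 5.624 FPKM in control livers, and its log2 fold change of 0.16 was -0.022 without MDL-800 2. Dhrs7b, which reduces acyl-dihydroxyacetone phosphate in ether lipid synthesis, averaged 8.787 ± 1.643 FPKM in MDL-800 livers and 7.913 ± 0.923 FPKM in control livers, a log2 fold change of 0.13 that was 0.000 without MDL-800 2.

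Carboxylesterases held the largest single difference, in the Ces2 subfamily, whose microsomal enzymes hydrolyse esters with small acyl groups and, in mouse liver, acylglycerols. Ces2e stood at 93.87, 130.6 and 89.67 FPKM in MDL-800 livers and at 77.48, 55.74, 50.79 and 44.03 FPKM in control livers. Every MDL-800 library lay above every control, and the nearest control was the Y-positive control 1. This gave a log2 fold change of 0.88 ± 0.23 (SE; 95% interval 0.33 to 1.42), with a limma adjusted p = 0.95 (0.00642 before adjustment). It was 0.75 in the Y-positive pair and 0.86 among the Y-negative libraries, both positive by necessity as the groups did not overlap. Over 18 alternatives it ranged from 0.71 to 1.03, and its adjusted p in limma from 0.327 to 1. Transcripts of other genes hold 3.36% of its 50-base words.

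Ces2g, of the same gene cluster, showed a smaller difference in the same direction. Ces2f, which had no reads in any library, lies between Ces2e and Ces2g. MDL-800 livers held 16.73, 16.64 and 19.5 FPKM, against 14.58, 13.82, 13.2 and 11.54 FPKM in control livers, without overlap. The log2 fold change was 0.38 ± 0.12 (SE; 95% interval 0.11 to 0.66), with a limma adjusted p = 0.95 (0.0138 before adjustment). It was 0.18 in the Y-positive pair and 0.46 among the Y-negative libraries, both positive by necessity as the groups did not overlap. Over the alternatives it ranged from 0.31 to 0.46. Ces2a, another gene of the cluster, stood at 84.9, 112.1 and 77.96 FPKM in MDL-800 livers and at 91.68, 67.02, 76.7 and 70.56 FPKM in control livers. Its log2 fold change of 0.25 ± 0.18 (SE) came with overlapping groups and was 0.098 without MDL-800 2, and 22.24% of its 50-base words lie in transcripts of other genes, Gm7208 among them. Ces2c averaged 4.468 ± 3.002 FPKM in MDL-800 livers and 3.255 ± 1.971 FPKM in control livers, with 42.22% of its words also in transcripts of other genes, mainly Ces2d-ps (38.21%).

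The upstream sequences of these 3 genes are shown because the genes lie in 1 cluster on chromosome 8 and Ces2e and Ces2g held the 2 smallest p-values of all members. Each is the 250 bases before the gene's start in RefSeq (GRCm38.p6, plus strand, 5′ to 3′). Capitals mark exact runs of at least 10 bases that Ces2e and Ces2g share, and in Ces2a the runs it shares with Ces2e.
Ces2e, chr8:104926010-104926259: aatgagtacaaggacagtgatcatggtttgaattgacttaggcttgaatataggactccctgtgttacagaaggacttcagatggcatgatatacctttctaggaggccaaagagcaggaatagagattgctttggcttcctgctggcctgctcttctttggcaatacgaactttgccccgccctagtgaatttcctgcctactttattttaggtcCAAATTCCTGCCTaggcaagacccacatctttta
Ces2g, chr8:104961468-104961717: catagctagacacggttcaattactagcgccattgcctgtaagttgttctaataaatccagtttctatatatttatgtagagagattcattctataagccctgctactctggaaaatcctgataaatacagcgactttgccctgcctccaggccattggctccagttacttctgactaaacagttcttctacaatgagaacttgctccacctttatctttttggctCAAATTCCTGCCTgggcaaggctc
Ces2a, chr8:104733753-104734002: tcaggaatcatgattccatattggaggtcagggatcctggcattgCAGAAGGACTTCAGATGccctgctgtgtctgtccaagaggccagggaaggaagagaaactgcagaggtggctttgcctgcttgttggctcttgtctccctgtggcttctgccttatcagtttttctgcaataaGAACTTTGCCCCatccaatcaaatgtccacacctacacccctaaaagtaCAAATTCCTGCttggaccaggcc
The run CAAATTCCTGCCT lies 34 to 22 bases before the start of Ces2e and 24 to 12 bases before that of Ces2g. It was found in 3 of 32851 promoter windows (0.00913%), those of Ces2e and Ces2g included. The first 11 of its 13 bases, CAAATTCCTGC, stand 23 to 13 bases before the start of Ces2a and in 8 windows in all. Ces2a also shares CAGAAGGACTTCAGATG and GAACTTTGCCCC with Ces2e, which were found in 2 and 3 windows. All these counts include the windows the runs were taken from. Such runs describe related sequence and are not evidence of a factor's site.

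Over all members with a RefSeq promoter, 63 of 77 genes with 69 windows, 3 short motifs were counted. The nuclear receptor half-site AGGTCA, searched on both strands in the same 250 bases, lay in 17.4% of member windows and 14% of all windows. The antioxidant response core TGACNNNGC lay in 5.8% of member windows and 10.2% of all windows, and TATAAA in 15.9% of member windows and 12.4% of all windows.

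The Ces1 and Ces3 genes held most carboxylesterase RNA and overlapped between groups. Ces1c, the secreted plasma esterase of rodents, was the highest of all 77 genes and took 55.7% of the family's summed FPKM. It stood at 1744, 1427 and 1714 FPKM in MDL-800 livers and at 1324, 1848, 2418 and 2030 FPKM in control livers, a log2 fold change of -0.20 ± 0.23 (SE) that was -0.073 without control 3 and -0.36 without control 1. Ces1d, the triacylglycerol hydrolase of liver and fat, stood at 458.1, 442.9 and 372.7 FPKM in MDL-800 livers and at 240.9, 360.3, 404.6 and 365.8 FPKM in control livers. Control 3 overlapped MDL-800 3, and the log2 fold change was 0.33 ± 0.21 (SE), or 0.17 without control 1. It was 0.88 in the Y-positive pair and 0.13 among the Y-negative libraries. Ces1g, a liver esterase tied to lipid handling in mice, averaged 185.8 ± 16.7 FPKM in MDL-800 livers and 155.1 ± 48.21 FPKM in control livers. Control 1 alone was low, at 83.06 FPKM, and the log2 fold change of 0.32 was 0.049 without that library, 1.03 in the Y-positive pair and 0.11 among the Y-negative libraries.

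Ces1f and Ces1e were high where Y-linked reads were present. Ces1f stood at 111.8, 224.6 and 97.79 FPKM in MDL-800 livers and at 186.9, 86.98, 61.21 and 59.01 FPKM in control livers, a log2 fold change of 0.62 ± 0.47 (SE). Within the Y-negative libraries the difference was 0.61 on the log2 scale, and it was 0.26 in the Y-positive pair. Over all libraries it was 0.25 without MDL-800 2 and 0.98 without control 1. Ces1e, or egasyn, which anchors beta-glucuronidase in the endoplasmic reticulum, averaged 91.54 ± 44.72 FPKM in MDL-800 livers and 65.65 ± 22.44 FPKM in control livers, a log2 fold change of 0.43 that was 0.055 without MDL-800 2. Ces1b stood at 44.53, 39.88 and 40.64 FPKM in MDL-800 livers and at 32.47, 65.48, 103 and 62.13 FPKM in control livers. On the log2 scale its fold change of -0.54 ± 0.35 (SE) was -0.80 among the Y-negative libraries and 0.29 in the Y-positive pair. It was -0.29 without control 3 and -0.83 without control 1.

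Ces3a and Ces3b, the Ces3 subfamily, varied widely between libraries of both groups. Ces3a stood at 178.8, 796.8 and 71.16 FPKM in MDL-800 livers and at 906.7, 236.2, 243.9 and 185.3 FPKM in control livers. Its log2 fold change of -0.53 ± 0.88 (SE) turned to 0.27 without MDL-800 3. Ces3b stood at 33.2, 95.89 and 23.83 FPKM in MDL-800 livers and at 141.5, 33.73, 122.1 and 32 FPKM in control livers, with control 3 as high as the Y-positive libraries. The log2 fold change of Ces3b was -0.62 ± 0.71 (SE), and -1.20 to -0.22 without single libraries. They share 30.9% and 26.13% of their 50-base words with other transcripts, mainly each other's, so the division of reads between them is uncertain.

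The 2 Y-positive libraries stood apart from the other 5 in many of these genes. Both lay above all 5 Y-negative libraries in 21 of 56 members (37.5%), against 20.0% of all genes tested, and below all 5 in 12 (21.4%), against 12.8% of all genes tested. The median size of the difference between the kinds of library was 0.59 on the log2 scale over members and 0.22 over all genes tested. With 1 Y-positive library in each group this difference has no replicate within a group, and sex, animal and library preparation cannot be told apart. The largest differences, Y-positive minus Y-negative on the log2 scale, were 2.33 for Ces3a, -2.07 for Akr1b7, 1.51 for Ces3b, 1.43 for Adh4, -1.41 for Aldh3b3 and 1.33 for Ces1f. Genes known to be higher in male mouse liver summed to 112.9, 4174 and 100.3 FPKM in MDL-800 livers and to 10453, 755.4, 369.4 and 468.2 FPKM in control livers. In controls 2 to 4 most of this sum was Serpina1e, at 692.1, 301.5 and 386.8 FPKM. Selenbp2 of this list did not split by Y-linked reads, at 6.999 FPKM in MDL-800 2 and 22.36 FPKM in control 3. Genes known to be higher in female liver summed to 2272, 57.84 and 1830 FPKM in MDL-800 livers and to 15.4, 3218, 6568 and 2359 FPKM in control livers.

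**Figure D3:**
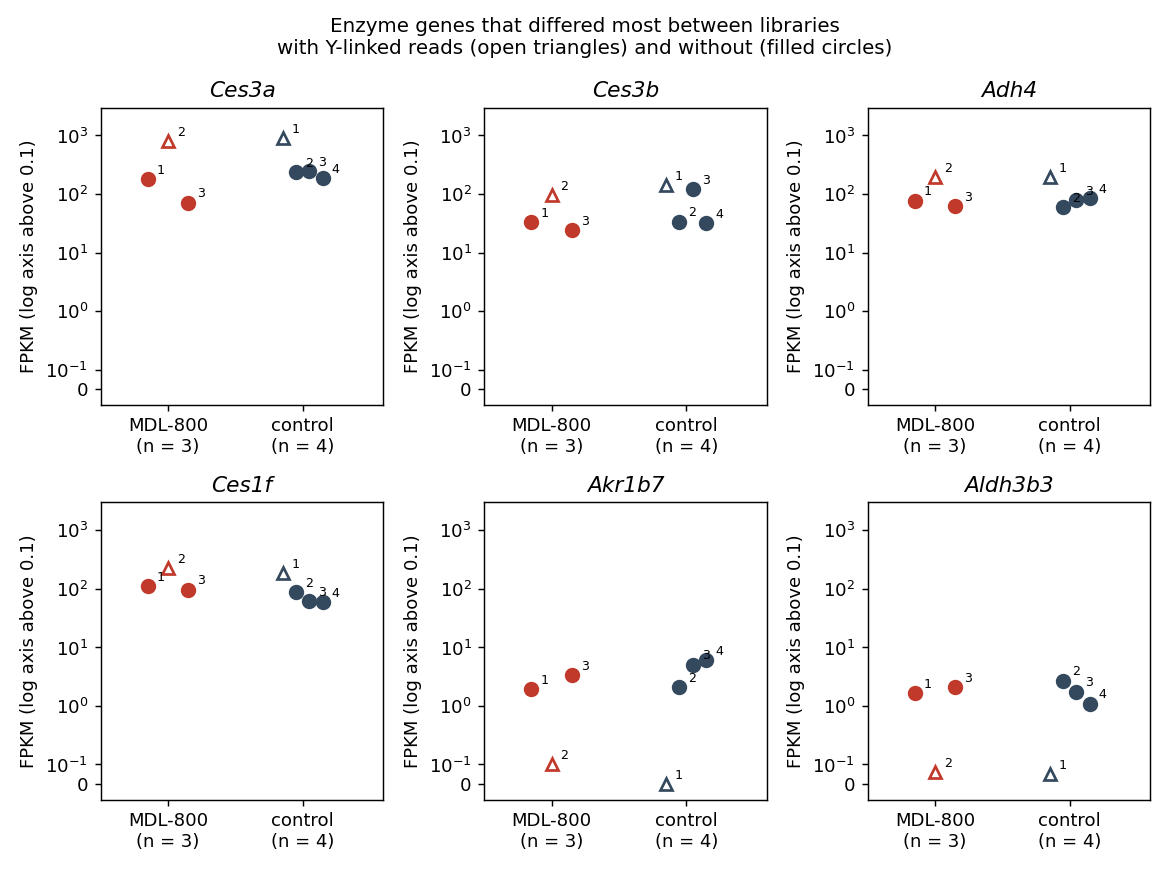
FPKM in each library is plotted for the 6 enzyme genes with the largest difference between libraries with Y-linked reads (open triangles) and without (filled circles), on an axis that is logarithmic above 0.1. Numbers are replicate numbers. Ces3a reaches 796.8 and 906.7 FPKM in the triangles and at most 243.9 FPKM elsewhere, while Akr1b7 is at most 0.1005 FPKM in the triangles.

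The treatment difference was therefore also taken within each kind of library. In the Y-positive pair, MDL-800 2 minus control 1, the log2 difference was above 0 for 42 of 56 members with a median of 0.26, against 5921 of 11394 genes and a median of 0.013 over all genes tested. Among the Y-negative libraries, 2 MDL-800 against 3 control, it was above 0 for 36 of 56 with a median of 0.063, against 6075 of 11394 genes and a median of 0.017. It was above 0 in both for 31 members (55.4%), against 33.1% of all genes tested, and below 0 in both for 9 (16.1%), against 27.6% of all genes tested. The 31 include the 4 members whose groups did not overlap, which had to be above 0 in both. By family the medians were 0.29 in the pair and 0.12 in the Y-negative libraries for Ces, 0.30 and 0.050 for Aldh, and 0.16 and 0.14 for Akr. They were 0.066 and -0.20 for Adh, 0.027 and 0.12 for Cbr, and -0.048 and 0.024 for Dhrs. The pair has 1 library on each side, so its values carry no replicate error.

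**Figure D4:**
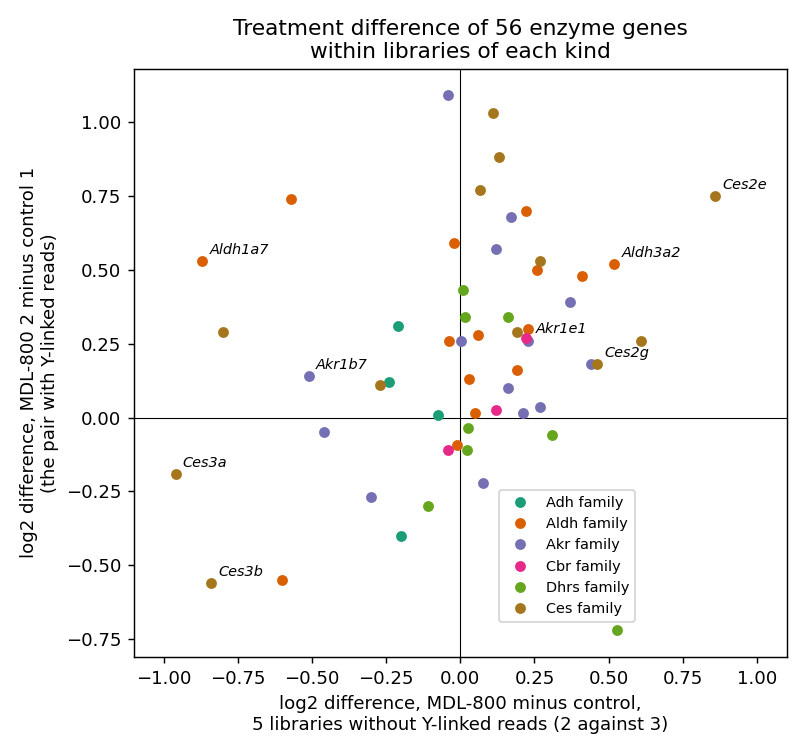
Each point is 1 of the 56 tested enzyme genes, coloured by family. The x axis gives the log2 difference of MDL-800 minus control among the 5 libraries without Y-linked reads and the y axis that of the pair with Y-linked reads. Ces2e (0.86, 0.75) and Aldh3a2 (0.52, 0.52) lie far above 0 on both axes. Their signs were fixed in advance, as their groups did not overlap. Aldh1a7 (-0.87, 0.53) differs in sign between the axes.

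Summed by family, RNA levels overlapped between groups. Summed Ces FPKM averaged 3136 ± 426.9 in MDL-800 livers and 3259 ± 326.9 in control livers (SD, n = 3 and n = 4). Summed Aldh averaged 1819 ± 466.2 and Akr 1473 ± 459.4 FPKM in MDL-800 livers, against 1668 ± 292.6 and 1262 ± 298.3 FPKM in control livers. Summed Adh averaged 1333 ± 212.8 FPKM in MDL-800 livers and 1396 ± 235 FPKM in control livers. For Dhrs the sums averaged 263.4 ± 28.75 FPKM in MDL-800 livers and 248.3 ± 42.68 FPKM in control livers, and for Cbr 46.66 ± 10.65 FPKM in MDL-800 livers and 51.8 ± 23.33 FPKM in control livers. The 3 highest genes made up 99.6% of the Cbr, 99.4% of the Adh, 81.2% of the Dhrs, 79.2% of the Ces, 67.2% of the Akr and 55.2% of the Aldh sum. Aldehyde dehydrogenase RNA was thus spread over more genes than that of the other 5 families.

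Among 21 members below a mean of 1 FPKM, 4 had 0 reads in all 7 libraries. At 3 reads per library as the limit, this allows up to 0.05034 FPKM for Akr1cl, 0.04302 for Ces2f, 0.07434 for Ces5a and 0.1671 for Dhrs2, for counting error only. The other 17 had 1 to 471 reads in all, among them Aldh1a2 and Aldh1a3, which make retinoic acid outside hepatocytes, with 47 and 52 reads. Akr1c18, the 20-alpha-hydroxysteroid dehydrogenase that inactivates progesterone, stood at 0.1918, 0.16 and 0.2832 FPKM in MDL-800 livers and at 0.05712, 0.5962, 1.931 and 0.5058 FPKM in control livers, with control 3 highest. Ces4a stood at 0.07138, 0.3703 and 0 FPKM in MDL-800 livers and at 1.53, 0.08451, 0.1742 and 0.1673 FPKM in control livers, most of it in the 2 Y-positive libraries.

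Enzymes that neighbour these families in metabolism were read in the same way, and none passed the limma test at an adjusted p under 0.05. Over all genes tested 54.2% had fold changes above 0 and 3.23% were higher at an unadjusted p under 0.05, and no test set these lists against other genes. Of 6 tested quinone and enone reductases, all 6 had fold changes above 0 with a median of 0.38, and 2 were higher at an unadjusted p under 0.05, beside 3.23% of all genes tested. Cryz, a quinone oxidoreductase, stood at 20.61, 22.77 and 22.25 FPKM in MDL-800 livers and at 15.99, 11.25, 15.46 and 12.86 FPKM in control livers, a log2 fold change of 0.63 with an unadjusted value of 0.0029 in limma. Nqo2 stood at 30.86, 43.88 and 36.64 FPKM in MDL-800 livers and at 30.05, 22.52, 29.81 and 22.23 FPKM in control livers, also without overlap.

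Of 25 tested retinol and other short-chain dehydrogenases, 20 had fold changes above 0 with a median of 0.24, and 5 had an unadjusted p under 0.05, all higher, beside 3.23% of all genes tested. Bdh1, which interconverts the ketone bodies, stood at 110.6, 99.13 and 101.3 FPKM in MDL-800 livers and at 96.18, 56.4, 58.83 and 43.84 FPKM in control livers, a log2 fold change of 0.75. Rdh9, a retinol dehydrogenase, stood at 3.789, 5.414 and 4.523 FPKM in MDL-800 livers and at 2.016, 1.489, 1.711 and 4.327 FPKM in control livers, where control 4 overlapped. Of 18 other ester, lactone and epoxide hydrolases 11 had fold changes above 0, with a median of 0.13 and Pon3, a lactonase carried on HDL, as the 1 gene with an unadjusted p under 0.05. The 4 other ethanol and acetate enzymes and the 3 aldehyde and purine oxidases all had fold changes above 0, with medians of 0.30 and 0.21. Retinoid carriers and storage genes had 3 of 7 above 0 and a median of -0.087, and NRF2 target genes 11 of 15 with a median of 0.32.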

How the data were processed

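The authors deposited 1 table of FPKM values for 54532 genes and 7 liver libraries, with gene coordinates and lengths. Per the labels' protocols, cDNA from lysed liver was amplified with a low-input SMARTer kit and built into NEBNext libraries, which do not mark strand, so overlapping and antisense genes share reads. The submitters' processing notes list build mm9 and the tools Cufflinks 2.2.1, Bowtie2 2.1.0 and TopHat2 2.0.14, and do not say which of them counted reads. Of 54495 gene identifiers shared with GENCODE M21, 53842 match its chromosome and start, and GRCm38 is therefore the build of the coordinates given.

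Multiplying each deposited FPKM by the gene's length gave whole multiples of 1 step in every library (100% of values checked, to within 0.01 of a read, up to 5000 reads), which recovered 17600066 to 19920469 reads per library. These summed to 0.9952 to 1.282 times the denominator behind the FPKM, so that denominator was not their sum. A gene at 0 was given a limit of 3 reads; since reads carry no molecular identifiers, this covers counting error alone.

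The 11394 genes that averaged 1 FPKM or more over the libraries were tested as log2(FPKM + 1), which understates changes of low genes. Tests used limma 3.58.1 under R 4.3.3 (lmFit, eBayes with a trend, two-sided), Benjamini-Hochberg adjusted with a threshold of 0.05, on all 7 libraries without covariates. The procedure was tested on simulated data. Same-numbered libraries of the groups correlated at -0.587, -0.553 and 0.0565 in their deviations from the group means. MDL-800 2 and control 1, the Y-positive libraries, correlated at 0.771. The pairs numbered 1 and 2 each set a Y-positive against a Y-negative library. The check therefore cannot decide whether the numbers pair libraries, and the main test did not pair them. No 2 libraries of the same group were duplicates, and libraries of different groups were not compared for this. Transcripts were compared in words of 50 bases to find shared sequence, and promoters are from RefSeq (GRCm38.p6). The 3 non-coding rows with matching symbols were left out. Alternatives were a pseudocount of 0.1, other filters, scalings and weights, limma voom on recovered reads, a replicate block, a term for Y-linked reads, the Y-negative libraries alone and leaving out each library.

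The members and the lists were chosen with earlier results of these data known. Fold changes are given for the 3 highest genes and the 3 with the smallest p in each family, the 6 with the largest Y-linked difference and, of other lists, up to 2 genes with the smallest p. Aldh1a7, Aldh3b1, Akr1c12, Akr1b3, Ces1b, Ces1e, Ces1g and Ces2a were added after their values were seen. Figures were made in Python 3.11.15 using matplotlib 3.10.9.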

Additional observations from a re-analysis of the deposited data

Results flagged for a closer look

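Each named enzyme gave 1 group of 4 control libraries, 40 groups in all. In 4 of them a library lay far from the other 3 by Dixon's criterion. That is a gap that takes too large a part of the group's range, at the 95% level. Chance flags about 1 in 20 groups picked without regard to their values. These enzymes were not picked so, and that rate cannot be set against the 4 flags. Aldh1a7 and Ces1g were added after their values were seen, and Ces3a was named in part for its Y-linked difference. Aldh1a7 stood at 460.2 FPKM in control 3, against 102.8 to 124.4 FPKM in the other 3 controls (gap 0.939 of the range). Ces3a stood at 906.7 FPKM in control 1, against 185.3 to 243.9 FPKM in the other 3 (gap 0.919). Ces1g stood at 83.06 FPKM in control 1, against 173.4 to 183.7 FPKM in the other 3 (gap 0.897). Akr1a1 stood at 175.3 FPKM in control 1, against 135.8 to 141.3 FPKM in the other 3 (gap 0.861). Of the 4 flags, 3 fall on control 1, which is the control library with Y-linked reads. Whether the flags go with Y-linked reads was not tested. Groups of 3 MDL-800 libraries are too small for this criterion.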

How the results depend on the processing

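Over the alternatives, 18 for most members and 17 for the 10 that a mean of at least 5 FPKM left out, 31 of 56 tested members kept their direction, 24 of them higher and 7 lower in MDL-800 livers. No gene passed an adjusted p under 0.05 in limma, except 1 without MDL-800 1 and 1 without control 1, so leaving out single libraries gave 0 to 1. Genes at an unadjusted p under 0.05 numbered 553, and 1083 with no filter on low values, 305 at a mean of at least 5 FPKM, 946 with array weights and 190 with the replicate block; leaving out single libraries gave 274 to 948. Members at an unadjusted p under 0.05 numbered 3, and 6 after quantile normalization, 7 with summed reads as the denominator, 7 with limma voom, 9 with a term for Y-linked reads, 1 with the replicate block and 2 to 7 without single libraries. The Akr median of 0.23 was 0.12 with array weights. Without single libraries the medians were 0.073 to 0.31 for Akr, 0.077 to 0.39 for Ces, 0.028 to 0.21 for Aldh, 0.019 to 0.21 for Dhrs, -0.28 to 0.21 for Cbr and -0.37 to 0.034 for Adh, with the lowest of Akr, Ces, Aldh, Dhrs and Adh without MDL-800 2. Log2 fold changes turned round for 25 of the 56. Of those printed here they were Adh1 (0.081 after quantile normalization; -0.15 to 0.042 without single libraries), Adh4 (-0.049 with the Y term, -0.21 with array weights, -0.074 in Y-negative libraries; -0.42 to 0.42), Adh5 (-0.33 to 0.042), Adh7 (-0.45 to 0.070), Aldh1a1 (-0.009 to 0.70), Aldh1a7 (-0.70 to 0.044), Aldh1l1 (-0.45 to 0.037), Akr1c6 (-0.025 with array weights; -0.20 to 0.41), Akr1b7 (-1.08 to 0.076), Dhrs1 (-0.022 to 0.29), Ces3a (-1.47 to 0.27) and Cbr1 (0.20 with the replicate block; -0.29 to 0.20). Cbr3 gave 0.002 with a pseudocount of 0.1, 0.044 after quantile normalization, 0.017 with summed reads, 0.094 with the Y term, 0.30 with array weights, 0.12 in Y-negative libraries and -0.28 to 0.40 without single libraries. Aldh3b3 gave 0.040 with the Y term, 0.22 with array weights, 0.050 in Y-negative libraries and -0.43 to 0.40 without single libraries. The other 11 were Aldh16a1, Aldh4a1, Aldh7a1, Aldh8a1, Akr1b8, Akr1d1, Akr7a5, Dhrs9, Dhrs11, Dhrs13 and Ces2c. The cause of these changes was not tested. The replicate block uses numbers for which no pairing was shown and drops control 4.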
